A study of Bos taurus with 6 samples.

Results

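The miRNAs of the imprinted DLK1-DIO3 locus were examined in exosomes from the uterine flushing fluid of Xianan cows, a Chinese beef breed. The members were the known bovine miRNAs whose family number belongs to this locus, letters and arms ignored, which gave 35 of the 895 counted miRNAs. The 3 donor cows had been brought into synchronous oestrus, superovulated with follicle-stimulating hormone and prostaglandin, and inseminated, and they carried well-developed blastocysts. The 3 recipient cows had been brought into synchronous oestrus and served as controls of similar body weight and age. Every cow was flushed on day 7, and each gave 1 small RNA library. Superovulation, insemination and the presence of embryos all differed between the groups and cannot be told apart in this design.

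The DLK1-DIO3 locus is an imprinted region, in which the parental origin of an allele decides which genes it expresses. The paternal allele expresses the protein-coding genes DLK1, RTL1 and DIO3, while the maternal allele expresses the long non-coding RNAs MEG3 and MEG8 together with a long array of snoRNAs and miRNAs. These miRNAs are known from placenta, embryo, brain and muscle. Some of them lie antisense to RTL1, a retrotransposon-derived gene needed for placental development, and can direct the cleavage of its transcript. By the gene positions that RefSeq gives on ARS-UCD2.0, which is newer than the authors' assembly, all 35 members had their gene between DLK1 and DIO3. That interval held 59 annotated miRNA genes, and 34 of them were matched by a member. By gene order, 6 members formed the group around RTL1, bta-miR-370 lay within MEG8, and 28 formed the array from miR-379 to miR-656.

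The mature sequences of the 10 members with the most reads, and of bta-miR-154c, are shown because the values below rest on them. They are given 5′ to 3′ in DNA letters as deposited, in gene order, with the seed (bases 2 to 8, which pair with target mRNAs) in capitals.
bta-miR-127: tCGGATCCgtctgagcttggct
bta-miR-432: tCTTGGAGtaggtcattgggtgg
bta-miR-370: gCCTGCTGgggtggaacctggt
bta-miR-379: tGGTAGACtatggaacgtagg
bta-miR-411a: aTAGTAGAccgtatagcgtacg
bta-miR-495: aAACAAACatggtgcacttctt
bta-miR-154c: aGATATTGcacggttgatctct
bta-miR-654: tATGTCTGctgaccatcacctt
bta-miR-381: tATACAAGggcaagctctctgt
bta-miR-382: gAAGTTGTtcgtggtggattcg
bta-miR-409b: gGGGTTCAccgagcaacattc

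The 35 members carried 35 different seeds, so that no pair of them shared a seed. Another 3 counted miRNAs, all predicted, shared a seed with a member: novel118_mature with bta-miR-432, novel411_mature with bta-miR-493 and novel79_mature with bta-miR-539. Some members shared a run of bases that lay mainly outside the seed. A shared run of at least 9 nt was found in 4 of the 595 member pairs (0.672%) and in 3 of the 14385 pairs of a member with another known miRNA (0.0209%). The longest run, 12 nt, joined the 3′ ends of bta-miR-543 and bta-miR-495, and a run of 9 nt joined those of bta-miR-154c and bta-miR-369-3p. These pairs are shown with the shared run in capitals.
bta-miR-543: aaacattcgcGGTGCACTTCTT
bta-miR-495: aaacaaacatGGTGCACTTCTT
bta-miR-154c: agatattgcacGGTTGATCTct
bta-miR-369-3p: aataatacatGGTTGATCTtt
The longest run shared between a member and any other counted miRNA was 10 nt, in sequences of 21 to 23 nt. Members bta-miR-409a and bta-miR-409b, whose genes have the same annotated interval, shared 9 nt.

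The libraries held between 229590 and 1365169 counted reads. A count of 0 allows up to 3 reads, which correspond to between 2.20 and 13.1 CPM (a miRNA's reads relative to all counted reads of its library). Intervals and limits cover counting error only, since no molecular identifiers were described. The miRNAs of other cell types also varied between cows. The 5 epithelial miRNAs (miR-141, miR-200a, miR-200b, miR-200c and miR-429) summed to between 24609 and 67216 CPM in donors and between 15026 and 18709 CPM in recipients. Of these, 3 of 5 passed the thresholds defined below as higher in donors, with adjusted p from 0.46 to 0.51 in edgeR's test. Those thresholds use the unadjusted p, and 8.27% of all miRNAs passed them. Mesenchymal miRNAs (miR-143, miR-145, miR-199a, miR-199b and miR-214, in 6 rows) summed to 14116, 9520 and 7483 CPM in donor cows 1, 2 and 3 and to 14351, 9894 and 31034 CPM in recipient cows 1, 2 and 3. By the same thresholds 1 of 6 was lower in donors (adjusted p = 0.46 in edgeR's test). None of the 3 erythrocyte miRNAs (miR-451, miR-144 and miR-486) or of the 4 leukocyte miRNAs (miR-142, miR-150, miR-155 and miR-223) passed in edgeR's test. Erythrocyte sums were 8505, 2894 and 2004 CPM in donors and 1905, 3339 and 13379 CPM in recipients, and leukocyte sums lay between 218 and 996 CPM. Recipient cow 3 was highest in the mesenchymal and erythrocyte sums and in the sum of the cluster. The part of these cells in the results below was not tested.

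The cluster was a small part of the exosomal miRNA. Its members took 5402 reads in all, from 172 in recipient cow 2 to 2203 in donor cow 1. Their share of the library was 0.161%, 0.147% and 0.129% for donor cows 1 to 3 and 0.0921%, 0.0544% and 0.236% for recipient cows 1 to 3, with 95% Clopper-Pearson intervals from 0.0466 to 0.0631% for recipient cow 2 and from 0.223 to 0.249% for recipient cow 3. The 3 donors lay close together, whereas the recipients held both the lowest and the highest share. The mean was 0.146% ± 0.0163 (SD, n = 3) for donors against 0.128% ± 0.0959 (SD, n = 3) for recipients. They differed by 0.0184 percentage points, less than the spread between recipients. The direction rested on recipient cow 2, without which the difference was -0.0182. Without any other single cow the difference stayed positive, from 0.00068 without recipient cow 1 to 0.0726 without recipient cow 3. With all cows but without bta-miR-127 it was -0.0132. In the flush of a cow, fewer source cells of a type and less of a miRNA per cell cannot be told apart.

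The members were unevenly filled. The 10 most-read members took 92.3% of the cluster's reads, and bta-miR-127 alone took 59.5%. It ranked 73 among all 895 miRNAs by mean CPM. The median member had 23 reads over the 6 libraries, against 26 for all miRNAs. Reads in all libraries were found for 9 members, and in a single library for 7 members. As many as 10 members did not exceed 3 reads in any cow. The number of members with a read was 32, 14 and 16 in donor cows 1, 2 and 3 and 25, 12 and 30 in recipient cows 1, 2 and 3. At the depth of the smallest library, the expected numbers were 21.3, 12.7 and 16 in donors and 19.1, 10.99 and 26.5 in recipients. The groups overlapped, and both the lowest and the highest number belonged to recipients.

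**Figure D1:**
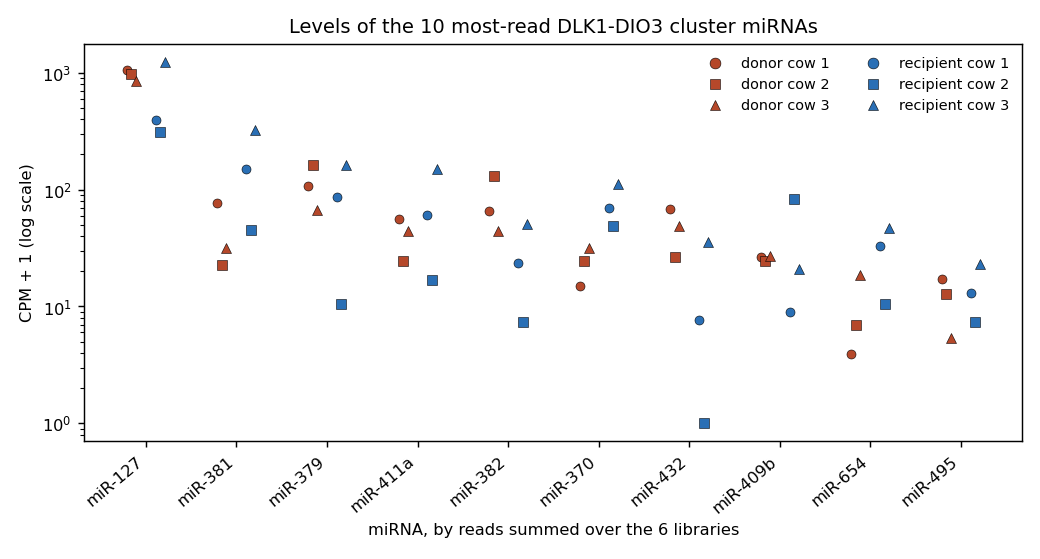
CPM + 1 on a log scale (vertical axis) of the 10 most-read cluster miRNAs (horizontal axis), with 1 point for each of the 3 donor and 3 recipient cows. bta-miR-127 lay above the others in every cow, recipient cow 3 was highest for 6 of the 10 and recipient cow 2 lowest for 5, and the groups did not overlap for miR-370.

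Whether donors differed from recipients was tested by edgeR's quasi-likelihood method, fitted once to all 895 miRNAs. A miRNA was called where its unadjusted p lay under 0.05 and its log2 fold change exceeded 1 in size. None of the 35 members passed them, and 0 had an unadjusted p under 0.05 in edgeR's test, whereas 8.27% of all miRNAs passed both thresholds. DESeq2's Wald test with its defaults called 1 member, bta-miR-154c, against 6.70% of all miRNAs. The log2 fold change (donor over recipient) was positive for 16 members and negative for 19. Its median was -0.33 over the members and -0.01 over all miRNAs. The standard errors lay between 0.75 and 2.59 with a median of 2.15, so that these data do not show that donors and recipients were alike. The common biological coefficient of variation, the spread between cows of a group, was 125%. The median over the members moved with the cows, to -1.60 without donor cow 1 (30 members left) and 0.98 without recipient cow 3 (33 members left). Members with reads in the omitted cow alone had dropped out there, so the set of members changed too. With all 35 members it was -0.79 without donor cow 3, -0.51 without recipient cow 2 and 0.10 without donor cow 2.

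**Figure D2:**
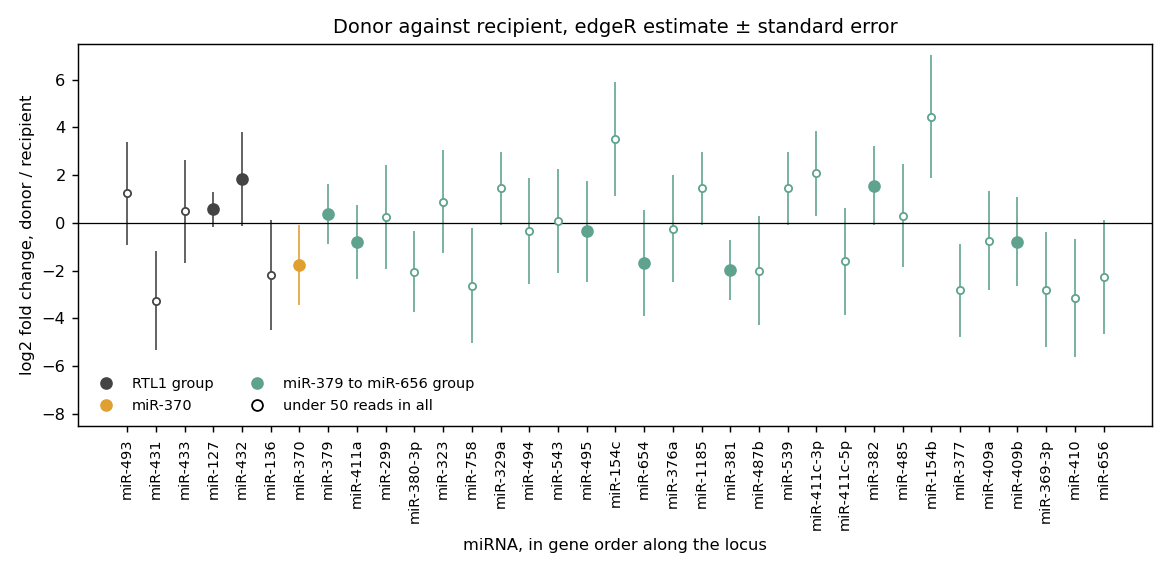
Log2 fold change of donor over recipient from edgeR (vertical axis, bars are standard errors) for the 35 members in gene order (horizontal axis), coloured by group in the locus, with open points for members under 50 reads in all. Positive and negative estimates both occur around RTL1 and in the array. Every member from miR-377 to the end of the array had a negative estimate, with standard errors from 1.87 to 2.47. This stretch begins just after miR-154b, at 4.46, and was not tested as a pattern. Its members had between 2 and 96 reads in all, and miR-409b turned to 0.96 without recipient cow 2. None of the 35 passed the thresholds.

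In the group around RTL1, 4 of 6 members had a positive log2 fold change, with a median of 0.52, and none passed the test. bta-miR-127, which lies antisense to RTL1 and is known to direct the cleavage of its transcript, stood at 1064, 981 and 841 CPM in donor cows 1 to 3 and at 393, 313 and 1233 CPM in recipient cows 1 to 3, from as few as 99 reads in recipient cow 2. Recipient cow 3 lay above every donor and the other recipients lay below every donor, so the groups overlapped. The estimate was a log2 fold change of 0.57 with a standard error of 0.75 (adjusted p = 0.77 in edgeR's test, by Benjamini-Hochberg over all miRNAs here and below), and with each cow left out it ran from 0.31 to 1.27, the latter without recipient cow 3. bta-miR-432, whose gene overlaps both RTL1 and MEG8, was counted 92, 13 and 11 times in donors, against 5, 0 and 19 times in recipients. Donor cow 2 (25.6 CPM) lay below recipient cow 3 (34.8 CPM), and the other donors were above all recipients. This gave a log2 fold change of 1.83 with an SE of 1.98 (adjusted p = 0.71 in edgeR's test), and 3.47 without recipient cow 3. The remaining members were sparse. bta-miR-493, upstream of RTL1, was counted 18, 16 and 1 times in donors, against 5, 0 and 7 times in recipients. bta-miR-433, which overlaps RTL1, was counted 2, 1 and 7 times in donors, against 1, 0 and 14 times in recipients. bta-miR-431 and bta-miR-136, both overlapping RTL1, did not exceed 2 reads in any cow.

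bta-miR-370, a miRNA studied for its effect on fatty acid oxidation in liver, is encoded within MEG8. It was counted 19, 12 and 7 times in donor cows 1 to 3, against 52, 15 and 60 times in recipient cows 1 to 3. Its CPM was 13.9, 23.7 and 30.5 in donors and 69.0, 47.4 and 110 in recipients. Every donor lay below every recipient, and it was the only member with reads in all 6 libraries for which the CPM of the groups did not overlap, joined after TMM normalization by bta-miR-382. Among all 235 miRNAs with reads in every library, 9.36% had groups that did not overlap. The log2 fold change was -1.75 with an SE of 1.68 (adjusted p = 0.68 in edgeR's test), and with each cow left out it stayed between -2.13 and -1.46.

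In the array from miR-379 to miR-656, 12 of 28 members had a positive log2 fold change, with a median of -0.34, and none passed edgeR's test. bta-miR-379, the first gene of the array, stood at 106, 162 and 65.3 CPM in donors, against 86.3, 9.49 and 161 CPM in recipients. Recipient cow 2, with 3 reads, was far below the other cows, which overlapped. In edgeR's fit the log2 fold change was 0.36 with an SE of 1.27 (adjusted p = 0.95). It was -0.083 without recipient cow 2 and 0.98 without recipient cow 3. Its neighbour bta-miR-411a was counted 75, 12 and 10 times in donors, against 45, 5 and 81 times in recipients. The donors, at 54.9, 23.7 and 43.6 CPM, lay between recipient cow 2 at 15.8 CPM and the other recipients at 59.7 and 148 CPM. For bta-miR-411a the log2 fold change was -0.81 with an SE of 1.56 (adjusted p = 0.86 in edgeR's test), and -0.055 without recipient cow 3.

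bta-miR-381 and bta-miR-382, encoded further along the array, had estimates of opposite sign. bta-miR-381 was counted 104, 11 and 7 times in donors, against 112, 14 and 175 times in recipients. Its CPM was 76.2, 21.7 and 30.5 in donors and 149, 44.3 and 320 in recipients. Only recipient cow 2 fell within the range of the donors. The log2 fold change was -1.96 with an SE of 1.26 (adjusted p = 0.52 in edgeR's test). It was -2.62 without donor cow 1 and -1.32 without recipient cow 3. It passed both thresholds in edgeR's test once recipient cow 2 was left out, at -2.30 (adjusted p = 0.71), where 4.34% of all miRNAs passed. bta-miR-382 was counted 89, 66 and 10 times in donors, against 17, 2 and 27 times in recipients. Its CPM was 65.2, 130 and 43.6 in donors and 22.6, 6.32 and 49.4 in recipients, so that donor cow 3 and recipient cow 3 overlapped, although they did not overlap after TMM normalization. The fitted log2 fold change was 1.56 with an SE of 1.65 (adjusted p = 0.71 in edgeR's test), and 2.19 without recipient cow 3.

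The other members among the 10 most-read had between 52 and 96 reads in all. bta-miR-409b was counted 35, 12 and 6 times in donors, against 6, 26 and 11 times in recipients. Its CPM was alike in donors, at 25.6, 23.7 and 26.1, and ran from 7.96 to 82.2 in recipients, highest in recipient cow 2. The log2 fold change was -0.78 with an SE of 1.87 (adjusted p = 0.91 in edgeR's test), and 0.96 without recipient cow 2. bta-miR-654 was counted 4, 3 and 4 times in donors, against 24, 3 and 25 times in recipients. Recipient cow 2, at 9.49 CPM, lay between the donors, which ranged from 2.93 to 17.4 CPM. This gave a log2 fold change of -1.69 with an SE of 2.22 (adjusted p = 0.77 in edgeR's test), and -2.82 without donor cow 3. bta-miR-495 was counted 22, 6 and 1 times in donors, against 9, 2 and 12 times in recipients. Its log2 fold change was -0.36 with an SE of 2.13 (adjusted p = 0.97 in edgeR's test), with groups that overlapped.

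Also in the array, bta-miR-154c is named because DESeq2 called it, a choice made after its values were seen. The paper, with the DESeq package on the same libraries, lists it as upregulated in donors by unadjusted p, though not after adjustment. Its log2 fold change there, 3.79, equals that of the DESeq2 fit given below. The paper's listing is therefore not separate support for the DESeq2 call. bta-miR-154c was counted 24, 15 and 5 times in donor cows 1 to 3, against 0, 0 and 3 times in recipient cows 1 to 3. Every donor, at 17.6, 29.6 and 21.8 CPM, lay above every recipient, the highest of which was at 5.49 CPM. The reads summed over each group, 44 and 3, gave a donor to recipient ratio per counted read of 11.3, with a 95% counting interval from 3.62 to 56.8 that covers counting error only. The fit of edgeR gave a log2 fold change of 3.51 with an SE of 2.39 (adjusted p = 0.55). That of DESeq2 gave 3.79 with an SE of 1.73 (adjusted p = 0.62). Between these fits the unadjusted p was under the threshold in that of DESeq2 alone, and neither passed the adjustment. All recipient reads came from recipient cow 3, and with each cow left out the estimate of edgeR ran from 2.91 to 6.81, values that depend on the prior count where a group holds no read. Its relative bta-miR-369-3p, with the same 9 nt near the 3′ end, was counted 2, 0 and 0 times in donors, against 7, 0 and 4 times in recipients.

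CPM of the groups did not overlap for 4 of the 35 members, bta-miR-154c higher and bta-miR-136, bta-miR-370 and bta-miR-410 lower in donors, against 5.81% of all miRNAs (3.13% higher and 2.68% lower in donors). Only bta-miR-370 and bta-miR-154c rest on more than a few reads. bta-miR-410 was counted 2, 0 and 0 times in donors, against 4, 1 and 7 times in recipients, and bta-miR-136 had 1 read in donor cow 1 and 1 in each recipient. With TMM-normalized CPM bta-miR-382 joined them, which made 5, against 6.93% of all miRNAs.

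The make-up of the cluster was also compared. bta-miR-127 held 66.0%, 66.5% and 65.2% of the cluster's reads in donor cows 1, 2 and 3, a mean of 65.9% ± 0.667 (SD, n = 3). In recipient cows 1, 2 and 3 it held 42.7%, 57.6% and 52.2%, a mean of 50.8% ± 7.56 (SD, n = 3). Every donor lay above every recipient. For recipient cow 2, with only 172 reads on the cluster, the 95% Clopper-Pearson interval of 49.8 to 65.0% overlapped those of all 3 donors, which began at 63.9, 63.0 and 59.5%. The difference of 15.1 percentage points ran from 10.99 to 18.4 with each cow left out. This share was singled out after the reads had been seen and is given without a test. bta-miR-370 made up 0.862%, 1.61% and 2.36% of the cluster's reads in donors and 7.49%, 8.72% and 4.65% in recipients. The array from miR-379 to miR-656 made up 28.1%, 27.8% and 26.0% in donors and 48.0%, 33.1% and 39.8% in recipients. These shares are parts of the same whole, so they are not separate from the share of bta-miR-127. In CPM the array ran from 335 to 453 in donors and from 180 to 939 in recipients, so the groups overlapped. Those of bta-miR-370 did not, as given above.

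**Figure D3:**
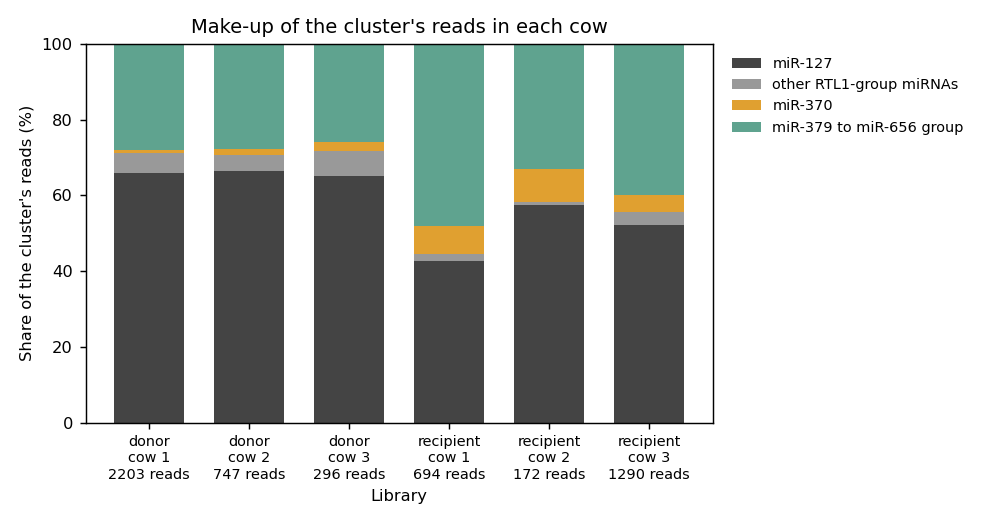
Share of the cluster's reads in percent (vertical axis, stacked to 100) for each of the 6 libraries (horizontal axis, with the cluster's reads below), split into miR-127, other miRNAs of the RTL1 group, miR-370 and the array from miR-379 to miR-656. The miR-127 segment ends between 65.2 and 66.5% in the donors and between 42.7 and 57.6% in the recipients.

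Ratios between members do not depend on the normalization. For the 8 members other than bta-miR-127 with reads in all libraries, reads per 100 reads of bta-miR-127 were compared between groups, a comparison added after the reads had been seen. For 4 of the 8 ratios every donor lay below every recipient, against 18.8% of the 234 miRNAs with reads in all libraries. bta-miR-370 had 1.31, 2.41 and 3.63 reads per 100 reads of bta-miR-127 in donors and 17.6, 15.2 and 8.90 in recipients, 5.66 times as many on average in recipients. bta-miR-381 had 7.16, 2.21 and 3.63 in donors and 37.8, 14.1 and 26.0 in recipients, 5.997 times as many. For bta-miR-654 these ratios were 0.275, 0.604 and 2.07 in donors and 8.11, 3.03 and 3.71 in recipients, and for bta-miR-495 they were 1.51, 1.21 and 0.518 in donors and 3.04, 2.02 and 1.78 in recipients, from as little as 1 read. In each of these 4 the two-sided exact permutation test gave p = 0.1, the smallest that 3 cows against 3 allow. After Benjamini-Hochberg adjustment over the 8 ratios it was 0.2. Groups that do not overlap always give this smallest p, so the test adds nothing to the values. All 8 ratios also share the reads of bta-miR-127 as denominator, so they are not separate from its share of the cluster given above. The ratios of bta-miR-379, bta-miR-411a, bta-miR-382 and bta-miR-409b overlapped between the groups, with exact permutation p-values from 0.2 to 1. bta-miR-382 was the only one of the 8 with a lower mean in recipients, 3.92 ± 1.86 against 8.20 ± 4.43 (SD, n = 3 in each group).

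**Figure D4:**
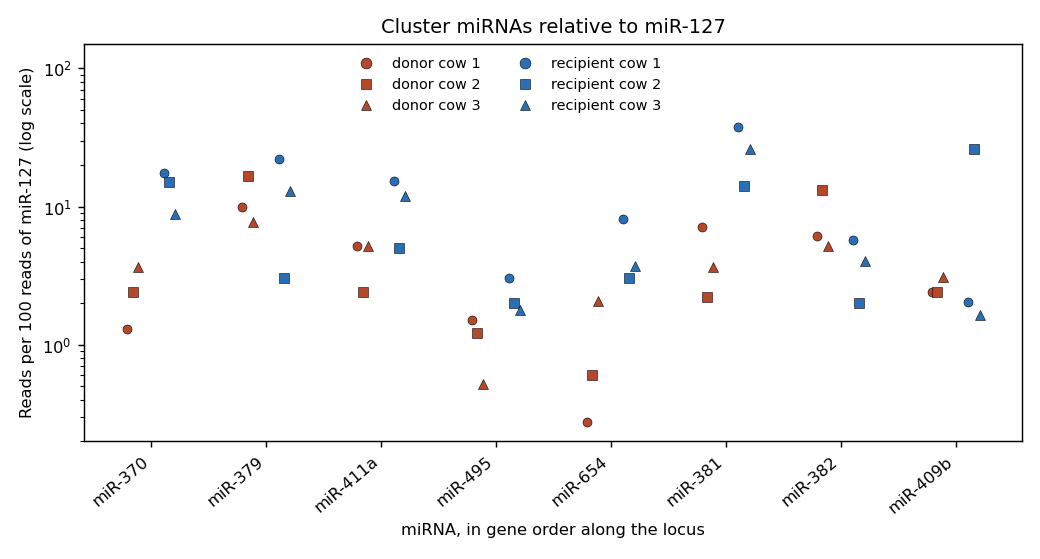
Reads per 100 reads of miR-127 on a log scale (vertical axis) for the 8 other members with reads in every library (horizontal axis, in gene order), with 1 point per cow. The 3 recipients lie above the 3 donors for miR-370, miR-495, miR-654 and miR-381, and the groups overlap for the other 4.

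The other 25 members had at most 49 reads in all, with log2 fold changes between -3.26 and 4.46 and no adjusted p under 0.52 in edgeR's test. Of the 35, 10 had no cow above 3 reads, a further 5 had no donor above 3 reads and a further 3 had no recipient above 3 reads. bta-miR-154b, with the largest fitted log2 fold change, had 16 reads in donor cow 1 and none in any other cow. bta-miR-485 was counted 19, 0 and 7 times in donors, against 4, 0 and 19 times in recipients, and bta-miR-543 18, 0 and 5 times in donors against 10, 0 and 12 times in recipients, so that both groups spanned from no read to a similar maximum. At the end of the array bta-miR-656 was counted 3, 0 and 0 times in donors, against 1, 1 and 6 times in recipients. Both arms of 1 hairpin were counted, with 2 reads of bta-miR-411c-3p and 6 of bta-miR-411c-5p in all, too few for a comparison of arms.

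Other imprinted miRNAs gave no call either. Of the same locus, 3 further rows were counted. bta-miR-1197, within the array, had 1 read in each of 3 cows. bta-miR-1247, encoded beside DIO3, had 15 reads of its 5p arm in donor cow 1 and 4 reads of its 3p arm in donor cow 2, and none elsewhere. Of other imprinted loci, bta-miR-335 (the MEST locus) was counted 10, 1 and 1 times in donors, against 11, 1 and 19 times in recipients. bta-miR-296-3p (the GNAS locus) was counted 325, 157 and 92 times in donors, against 323, 25 and 75 times in recipients, with a log2 fold change of 0.54 (adjusted p = 0.85 in edgeR's test). bta-miR-483 (the IGF2 locus) had 1 read in all, and bta-miR-296-5p had 4, all in donor cow 2. None of these rows passed the thresholds in edgeR's test.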

How the data were processed

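Small RNA of exosomes from uterine flushing fluid was sequenced for 3 donor and 3 recipient cows. The authors removed reads of low quality or unsuitable length, named known miRNAs by alignment to miRBase, predicted others with miRdeep2, and deposited raw counts, the whole number of reads on each miRNA in a cow. Their genome was ARS-UCD 1.2, and the submitters' processing notes also name HISAT2 and HTSeq. How reads that match several miRNAs were counted is not given in the sources used here. Total counts ranged from 229590 to 1365169. Groups were taken from the sample titles. No pair of libraries held identical counts. With 1 library per cow, animal and technical spread cannot be told apart.

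All 895 miRNAs entered 1 fit in edgeR 4.0.16, run in R 4.3.3 (TMM, robust glmQLFit, prior count 0.125, glmQLFTest), without covariates and without a filter on low counts, and Benjamini-Hochberg adjustment covered all of them. A standard error is the absolute log2 fold change divided by the square root of F. DESeq2 1.42.0 was an alternative. The authors' DESeq package was not used here. Exact permutation tests used scipy 1.17.1. The other alternatives were DESeq2's size factors, total counts, a minimum of 10 reads in 3 libraries, filterByExpr, a block for the cow's number, and fits without each cow; scaling to the cluster's own reads and known miRNAs only were added later. Expected detection at the smallest depth is the hypergeometric expectation. Members given in full were the 10 with the most reads and any that passed. The members and lists were chosen with earlier results of these data known. Gene order and overlaps come from RefSeq on ARS-UCD2.0, where 440 of 446 known miRNAs were matched by name. Each miRNA is read whole, so levels of members of 21 to 23 nt are compared as CPM, with no correction for ligation preference.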

Additional observations from a re-analysis of the deposited data

How the results depend on the processing

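The number of members past both thresholds was 0 and stayed 0 in 12 of the 14 alternatives. It was 1 with DESeq2's Wald test (bta-miR-154c, higher in donors), and it ran from 0 to 1 with each cow left out, where recipient cow 2 gave the 1 (bta-miR-381, lower in donors). The median log2 fold change of the members, -0.33, ran from -1.60 (without donor cow 1, 30 members left) to 0.98 (without recipient cow 3, 33 members left). This median was 0.22 with at least 10 reads in 3 libraries (9 members left) and -0.07 with filterByExpr (8 members left). With DESeq2's size factors it was -0.28, with total counts -0.29 and when scaled to the cluster's own reads -0.43. DESeq2's size factors moved the median of all miRNAs from -0.01 to 0.12, and scaling to the cluster's reads moved it to -0.39. The share of reads on the cluster, donors minus recipients, ran from -0.0182 to 0.0726 percentage points, and that of bta-miR-127 within the cluster from 10.99 to 18.4, with each cow left out. With only the 9 members that had reads in every library the latter was 19.2.

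Among the fits of the 10 named members under the alternatives, 131 kept their direction and their side of the thresholds, 1 came past them (bta-miR-381, above) and 4 changed direction. The latter were bta-miR-379 (-0.083) and bta-miR-409b (0.96) without recipient cow 2, bta-miR-495 (0.057) without recipient cow 3, and bta-miR-409b (0.064) with the replicate block. With each cow left out these 3 ran from -0.083 to 0.98, from -1.28 to 0.96 and from -0.75 to 0.057. The cause was not tested. Cows that carry the same number did not deviate together from their group means (r = 0.072, -0.10 and -0.28, taken over 399 miRNAs), so the number was not taken as a pairing. With it as a block 0 members passed, and the median of the members was 0.04. Arm shares could not be compared, and restricting the members to the interval between DLK1 and DIO3 left all 35. Depth was a limit most of all for 16 of the 35 members, which had under 10 reads in every cow. It also limited others, since only 5 of the 35 had more than 3 reads in every cow.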
